A study of Drosophila melanogaster with 2 samples.

Results

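Of the 6776 reproducible binding peaks of CG12605-eGFP in whole Drosophila melanogaster pupae, 731 had their summit just inside a gene, 1 to 500 bp downstream of a single protein-coding start site. These 731 summits make up 10.8% of the list and belong to 709 start sites of 678 genes. A summit was taken as a member when the nearest annotated start site of a protein-coding gene lay 1 to 500 bp behind it on that gene's strand and no other protein-coding gene started within 500 bp of the summit. The rule used position alone, so signal and replicate support could be tested. Sequence can differ by position around a start site, so for GC and the motifs that passed the same distances at start sites are given too. The same rule on the other side of the start site gave 1398 upstream summits, which serve as the comparison.

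The chromatin came from pupae aged 1 day of the transgenic strain CG12605-GFP, which carries CG12605 fused to enhanced green fluorescent protein, and was precipitated through the GFP tag. CG12605 is a zinc finger protein related to Snail and Scratch. There are 2 biological replicates of this single group, sexes were not recorded, and the labels' antibody field names CG12605 while their description names anti-GFP. Whole animals were used, so a peak can stem from any tissue, and the sources used here do not give the regulatory sequence that drives the fusion.

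The stretch just behind a start site holds several regulatory layers in flies. RNA polymerase II often pauses there, core promoter elements such as the initiator span the start itself, and the first intron of a developmental gene can carry enhancers. GAGA factor, the product of Trl, reads GA repeats at many of these promoters. Snail and Scratch proteins bind E-boxes, short sites built around CAGGTG, and are best known as repressors in mesoderm and nervous system.

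Of the 20 strongest members 8 were intronic, and for 6 of them the window reaching 50 bp to either side of the summit is printed. CG9399 and CrebB were left out, and CrebB has a run of T on the coding strand near its summit. Introns hold 171 of the 731 members, so these windows do not stand for all of them. The windows were read from the RefSeq Release 6 assembly, in dm6 coordinates, on the strand of the gene. Capitals mark 3 of the 13 sequences searched on both strands: the A run AAAAAA, the GA repeat GAGAG and the TATA box TATAAA.
Cat, chr3L:18822875-18822975, plus strand: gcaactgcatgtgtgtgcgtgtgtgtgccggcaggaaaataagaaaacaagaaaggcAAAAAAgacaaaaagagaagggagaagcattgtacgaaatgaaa
hb, chr3R:8694249-8694349, minus strand: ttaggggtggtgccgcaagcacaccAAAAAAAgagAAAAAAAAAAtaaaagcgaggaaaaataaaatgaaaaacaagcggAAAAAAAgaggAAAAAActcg
yip2, chr2L:9915379-9915479, plus strand: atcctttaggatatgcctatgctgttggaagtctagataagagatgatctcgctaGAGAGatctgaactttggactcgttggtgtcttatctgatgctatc
tay, chrX:15886794-15886894, minus strand: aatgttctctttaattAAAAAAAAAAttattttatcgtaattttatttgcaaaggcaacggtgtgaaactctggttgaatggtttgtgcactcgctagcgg
scramb2, chr3L:3046385-3046485, minus strand: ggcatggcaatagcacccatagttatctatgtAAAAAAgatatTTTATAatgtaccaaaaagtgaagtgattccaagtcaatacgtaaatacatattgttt
rudhira, chrX:11818556-11818656, plus strand: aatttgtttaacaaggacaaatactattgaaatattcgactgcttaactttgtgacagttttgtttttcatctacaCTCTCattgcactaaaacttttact
The windows of Cat, hb and tay carry A runs on the coding strand, those of yip2 and rudhira a GAGAG match, and that of scramb2 both an A run and a TATAAA match.

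The longest E-box searched, CAACAGGTG, was present in this window in 7 members. It contains CAGGTG, which is CACCTG on the other strand. The sites of 5 of these 7 are shown for the bases around a full match to this extended E-box, each with 10 bases on either side on the strand of the motif and the motif in capitals.
prt, chr3R:23698970-23698998, plus strand: tccggagtggCAACAGGTGgtggtgctgc
MTF-1, chr3L:9430821-9430849, plus strand: aagtggcgagCAACAGGTGcttaatctgg
PAPLA1, chr2L:8159154-8159182, plus strand: agcagccgagCAACAGGTGacccccactc
Ets97D, chr3R:26912644-26912672, plus strand: ttcggtgtaaCAACAGGTGcgtcccaatt
IntS4, chrX:8558436-8558464, minus strand: ggagccccgtCAACAGGTGtcatcggaaa
The motif centre lay between 5 bp and 30 bp from the summit in these 5 members. Of the 5, the strongest peak was at prt, which encodes a vesicular transporter, with a signal value of 115, and the weakest at IntS4, a subunit of the Integrator complex, with 43.9. MTF-1, the metal-responsive transcription factor, had 76.0, PAPLA1, a phospholipase, 70.1, and Ets97D, an ETS-family factor, 62.5. The other members with the motif were CngB, a cyclic nucleotide-gated channel subunit, at 134, and VhaAC45, an accessory subunit of the vacuolar proton pump, at 107.

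Downstream summits crowded toward the start site. The median distance was 95 bp, with quartiles of 40 and 275.5 bp. Within 50 bp of the start there were 233 members, and a further 141 lay at 50 to 100 bp, each band leaving out its lower bound. Another 124 lay at 100 to 200 bp and 66 at 200 to 300 bp. Beyond that the numbers did not fall further, with 80 at 300 to 400 bp and 87 at 400 to 500 bp. Upstream summits had a median distance of 142 bp, and 493 of the 1398 lay 100 to 200 bp before the start. Downstream summits were 34.3% of the 2129 summits at single start sites (exact 95% interval 32.3 to 36.4%). Peaks are wide relative to these distances: 634 of the 731 members were exactly 360 bp wide, and the peak covered the start site itself in 460 members (62.9%). The side of the start site is therefore uncertain where the peak covers it, and least certain for the 233 members within 50 bp.

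**Figure D1:**
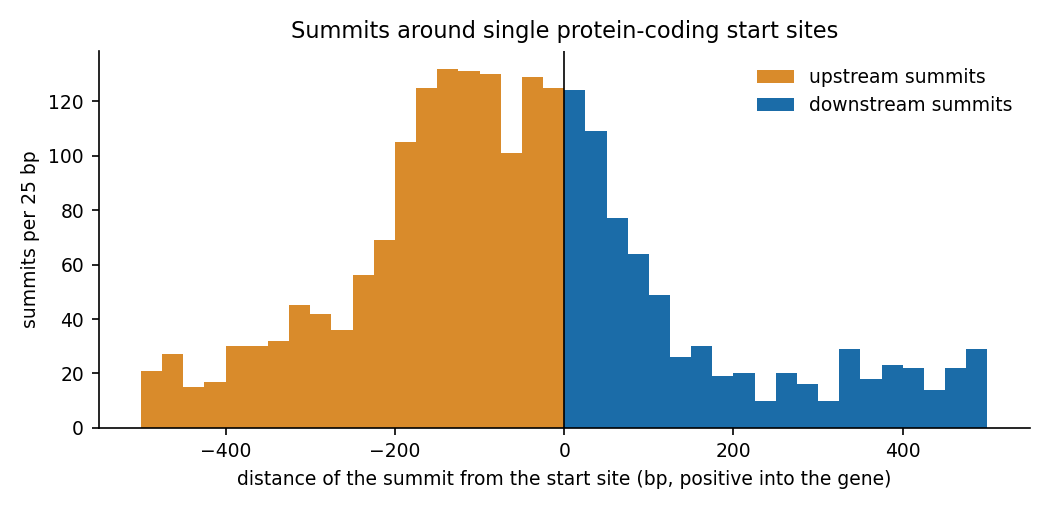
Number of summits per 25 bp against the distance from the nearest single protein-coding start site, in bp, positive into the gene; upstream summits are orange and downstream summits blue. The downstream summits are densest next to the start site and level off beyond about 200 bp, while the upstream summits are densest between the start site and 200 bp before it.

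The peaks nearest to the limit varied in height. Just inside it were pinta and Atg8a at 500 bp, with signal values of 69.5 and 37.2, and mmy at 499 bp with 125. Just outside were Moe at 501 bp, with 41.0, and Sec13 and Mnt at 502 bp, with 143 and 142.

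Members lay in untranslated exons and introns and rarely over coding sequence. Relative to the transcripts that start at the nearest start site, 530 summits (72.5%) fell in an exon of the 5′ UTR, 171 (23.4%) in an intron and 29 (3.97%) in a coding exon. The remaining summit lay beyond the end of its short transcript. The same distances taken at all 17897 single start sites in the annotation fall in 5′ UTR exons in 54.6%, in introns in 14.4% and in coding exons in 30.1% of cases. Many of those genes were not bound, so the same distances were also taken at the 1351 start sites that have an upstream summit, a reference chosen after seeing the data. There the shares were 70.3% in 5′ UTR exons, 17.96% in introns and 11.6% in coding exons. No test was made of these shares.

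The place changed with distance. Within 50 bp of the start, 228 of 233 summits were in a 5′ UTR exon. At 200 to 300 bp, 29 of 66 summits (43.9%) were intronic, against 27.2% of the same positions at all single start sites. At 400 to 500 bp, 58 of 87 summits were intronic, a share of 66.7% (exact 95% interval 55.7 to 76.4%) against 32.6% of the same positions. Coding exons held 3 of those 87 summits, or 3.45%, where they make up 51.9% of the same positions. Many genes of this reference were not bound, and the start sites of upstream summits were not taken by band. Of the 171 intronic summits, 168 were in the first intron, at a median of 143 bp past the end of the first exon. The summit lay before the start codon in 634 of the 731 members.

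**Figure D2:**
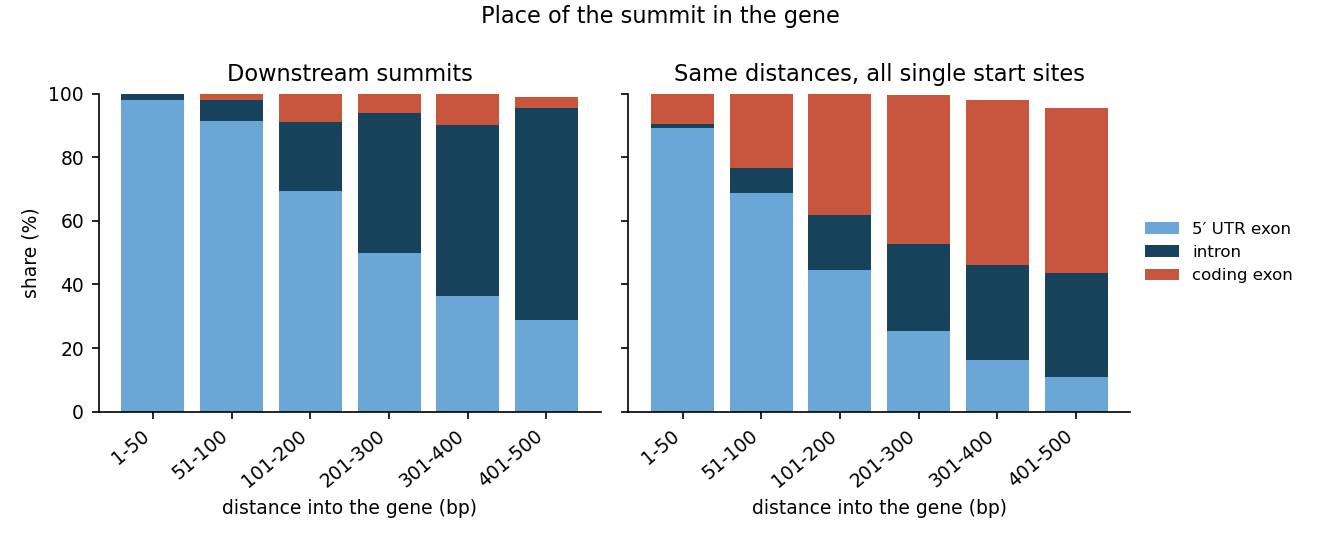
Share of positions (%) in 5′ UTR exons, introns and coding exons against the distance into the gene in bp; the left panel shows the 731 downstream summits and the right panel the same distances at all single start sites. At 400 to 500 bp introns hold 66.7% of the summits but 32.6% of the reference positions, and coding exons 3.45% against 51.9%. Many genes of the reference were not bound.

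Intronic summits and those in 5′ UTR exons had similar median heights. The signal value is the authors' own height of each peak, and peaks are compared by it only within a list. Replicate values come from separate lists of unstated scaling and are set side by side as description. The median signal was 76.3 over the 530 summits in 5′ UTR exons, 74.6 over the 171 in introns and 66.9 over the 29 in coding exons. The DNA under them differed more: the mean GC content of the window was 46.5% in 5′ UTR exons, 39.9% in introns and 56.0% in coding exons. These values describe the members and were not tested.

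Downstream summits were lower than upstream summits. Their median signal was 76.0, with quartiles of 59.2 and 105 and a range from 9.0 to 1073, and the upstream median was 93.3. By construction 50% of the list lies above its median of 85.6. Of the downstream summits 39.0% did (285 of 731, exact 95% interval 35.4 to 42.6%), and of the upstream summits 56.7% (793 of 1398, 54.1 to 59.3%). The difference, downstream minus upstream, was -17.7 percentage points and had an adjusted p of 2.52e-14 by Fisher's exact test, two-sided, with Benjamini-Hochberg adjustment over 7 properties. In each replicate's own list the direction was the same. In replicate 1, 43.0% of the downstream and 55.5% of the upstream summits lay above the median of the conservative peaks, and in replicate 2 the shares were 41.0% and 56.1%. Peaks of one list are not replicates, so these tests describe the list and not the spread between animals.

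At matched distances the difference passed in 4 of the 6 bands, and whether it differed between bands was not tested. Within 50 bp of the start site, 38.6% of downstream and 41.3% of upstream summits lay above the list median, and this difference did not pass the exact test (adjusted p = 0.658). At 100 to 200 bp the shares were 36.3% and 60.2%, with an adjusted p of 1.16e-05. At 50 to 100, 200 to 300 and 300 to 400 bp the downstream share was also lower by the exact test, with differences of -20.7, -23.1 and -18.8 percentage points. At 400 to 500 bp the shares were 44.8% and 57.5%, a difference that did not pass the exact test (adjusted p = 0.169). Among the members alone, signal did not follow distance: Spearman's rho was 0.02 over 731 summits, and the median signal of the 6 distance bands ran from 69.2 to 78.5. These bands were compared after seeing the data, and the p-values are adjusted over 18 exact tests.

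**Figure D3:**
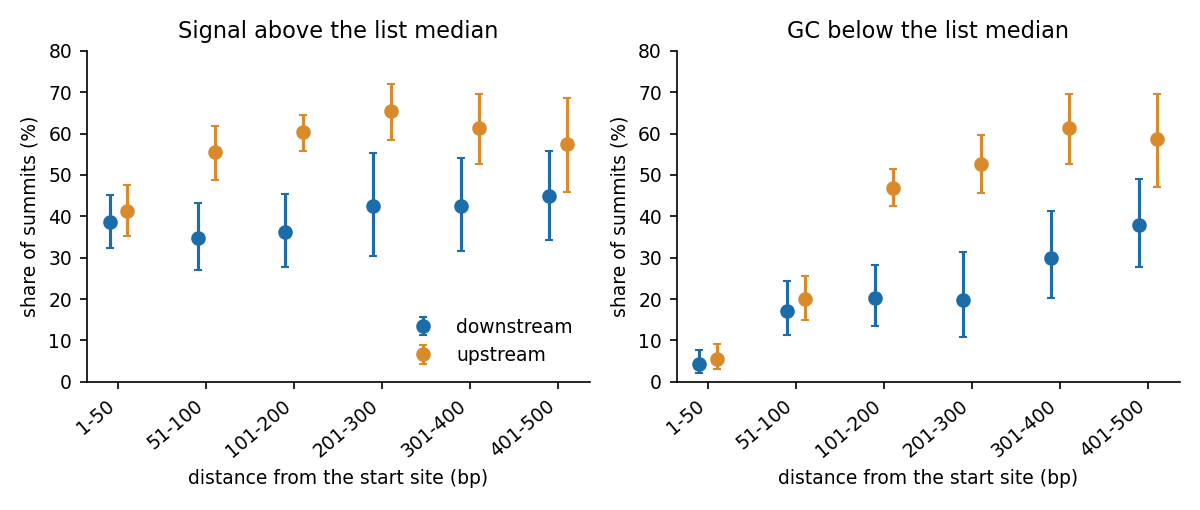
Share of summits (%) with a signal above the list median (left) and with a GC content below the list median (right), against distance from the start site in bp, for downstream (blue) and upstream (orange) summits; bars are exact 95% binomial intervals, which cover counting error only. The downstream points lie below the upstream points in every band; for signal the difference is -2.71 points within 50 bp and -23.95 points at 100 to 200 bp.

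Fewer downstream than upstream summits were in the thresholded lists of both replicates. In the whole list 48.3% of the peaks overlapped a thresholded peak of each replicate. Among the downstream summits 293 did (40.1%, exact 95% interval 36.5 to 43.7%), and among the upstream summits 777 (55.6%), with an adjusted p of 2.96e-11 by Fisher's exact test. The difference was -15.5 percentage points, and among peaks at or above the median signal it was -6.62 points (adjusted p = 0.0296, exact test). Replicate support was not compared at equal signal. The thresholded list of replicate 1 held 374 of the members, that of replicate 2 held 467, and 183 were in neither. Within 50 bp of the start site the shares in both lists were 37.8% and 43.7%, and at 400 to 500 bp 49.4% and 51.2%, and neither difference passed the exact test over the 18 (adjusted p = 0.253 and 0.877).

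Most members had a summit of their own in each replicate. The longer ranked lists had a summit within 100 bp for 642 members in replicate 1, for 651 in replicate 2 and for 607 in both, and 45 members (6.16%) had none in either. Over the whole list a summit was found for 91.4% of the peaks in replicate 1 and 92.5% in replicate 2, beside 87.8% and 89.1% of the members, and 4.49% of the list had none in either. Over the 607 the replicate signals had a Spearman's rho of 0.64 and a Pearson's r of 0.82 on the log2 scale, without a test, since the members share both libraries. The rho was 0.73 over the whole list and 0.77 over upstream summits. Replicate 2 was the higher for 442 of the 607, with a median log2 difference of 0.28 and an SD of 0.45. The same held for 4318 of 5991 peaks of the whole list. There were 35 members with a signal under 20 (4.79%, whole list 3.51%). Of these 15 were in both thresholded lists, beside 91 of 238 such peaks of the whole list. The read depth of both libraries is unknown.

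**Figure D4:**
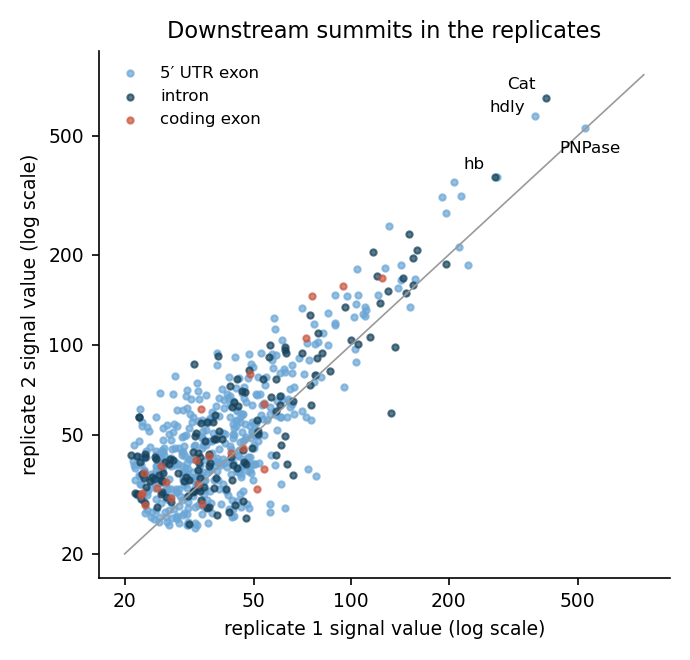
Signal value of the downstream summits in replicate 2 against replicate 1, both on log scales, for members with a summit within 100 bp in each ranked list, coloured by place in the gene; the grey line marks equal values. Cat, PNPase, hdly and hb stand at the upper end in both replicates, and 442 of 607 members have the higher value in replicate 2.

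The strongest downstream summits were those of Cat, PNPase, hdly and hb. Cat, which encodes catalase, the enzyme that breaks down hydrogen peroxide, had a signal of 1073, with 399 in replicate 1 and 671 in replicate 2. Its summit lies on 3L at 18822925, in the first intron and 321 bp into the gene (FBgn0000261, plus strand, 18822604 to 18828188). It ranked 5 in the whole list. PNPase, which encodes polynucleotide phosphorylase, had 1065, with 529 and 532 in the replicates. Its summit lies on 3R at 31404657, 83 bp behind a start site of the gene (FBgn0039846, minus strand, 31401560 to 31405452) and in a 5′ UTR exon. The hdly summit was 55 bp in, with 956 in the list, 369.5 in replicate 1 and 581 in replicate 2. For Cat and hdly the replicate 2 value was above that of replicate 1, while the PNPase values were nearly equal. Replicate 2 was the higher for 4318 of 5991 peaks of the whole list, and the scaling of the values is not stated. These gaps are therefore not read as differences between genes.

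The gap gene and neuroblast temporal factor hb had the strongest member among the genes of the lists. Its summit at 640.1 had 277 and 363 in the replicates and lay on 3R at 8694299, in the first intron and 301 bp behind a start site of the gene (FBgn0001180, minus strand, 8690980 to 8697822). A second member of hb, 272 bp behind another start site, had only 54.4, with 21.2 and 40.9 in the replicates. The 2 hb summits thus differ in height in both replicates.

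Other members of the top 20 encode regulators and enzymes. GstE13, a glutathione S-transferase, had 637. Unr, an RNA-binding protein of dosage compensation, had 565. The BTB factor psq had 544, the microtubule plus-end protein CLIP-190 had 501, and the zinc finger gene jing had 444. SCOT, which encodes the ketone body enzyme succinyl-CoA:3-ketoacid CoA transferase, had 414, and yip2, a thiolase gene, had 394. The phospholipid scramblase gene scramb2 and the planar polarity gene cmb both had 383. Pde6, a cyclic GMP phosphodiesterase gene, had 335, the Polycomb group gene ph-p 328 and the cyclic AMP response factor CrebB 327. Of the same 20, CG32772 had 478, tay 388, CG9399 349.9 and rudhira 317. The gene ph-p lies beside its near-identical copy ph-d, and the sources used here do not say how reads shared by the copies were placed.

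These 20 members were chosen for their signal, and their other properties can be described. All 20 were in both replicate lists, which is no separate support, since the signal that chose them was derived from both replicates. Replicate 2 was the higher for 17, the exceptions being jing, SCOT and scramb2, and for 442 of the 607 members with a value in each. Of the 20, 11 lay more than 200 bp into the gene, where 233 of all 731 members lie, and 8 were intronic. None had the width of 360 bp that most members share.

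The DNA under downstream summits was richer in G and C than under upstream ones. The mean GC content of the window was 45.4% at downstream and 41.4% at upstream summits, and 38.3% over the whole list. GC below the list median of 36.6% was found in 48.5% of the whole list, in 17.6% of the downstream (129 of 731) and 37.8% of the upstream summits (529 of 1398), with an adjusted p of 7.19e-22 by Fisher's exact test. The same distances at all single start sites have a mean of 44.8%, and at the start sites of upstream summits 45.3%. Both are close to the 45.4% of the members, so the test against upstream summits cannot separate the summits from their side of the start site. By band the members and the same distances at all single start sites parted in opposite directions, with 48.6% against 43.7% within 50 bp, 43.2% against 47.0% at 300 to 400 bp and 40.9% against 46.8% at 400 to 500 bp. These means were not tested. Within 50 bp and at 50 to 100 bp of the start site the differences between the shares, -1.22 and -2.89 points, did not pass the exact test, and in each band beyond 100 bp the difference passed, between -33.0 and -20.8 points. GC fell with distance from the start (Spearman's rho -0.25 over 731 members).

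The 73 strongest members had much A on the coding strand. A made up 35.6% of their windows and T 25.2%, against 28.4% and 26.2% over all members and 28.7% and 26.5% at the same distances from all single start sites. More A than T was found in 49 of the 73 (67.1%, exact 95% interval 55.1 to 77.7%), in 385 of all 731 members (52.7%) and in 628 of 1398 upstream summits (44.9%). This composition was looked at after the windows printed above had been seen and was not tested. The 73 were not set beside the strongest upstream summits, and the same distances are those of all 731 members.

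Among the 13 sequences searched on both strands, 2 differed between downstream and upstream summits. GAGAG, the core of the GAGA factor site, was in the windows of 152 downstream summits (20.8%) and of 407 upstream summits (29.1%), with an adjusted p of 0.000422 by Fisher's exact test over the 13. It was found in 19.6% of the whole list. At the same distances it was in 12.1% of windows at all single start sites and 15.8% at the start sites of upstream summits. By band the downstream and upstream shares were 21.0% and 33.1% within 50 bp and 20.6% and 41.6% at 50 to 100 bp. They were 18.5% and 29.0% at 100 to 200 bp, but 28.8% and 18.7% at 200 to 300 bp. Farther out they were 18.75% and 20.4% at 300 to 400 bp, and 19.5% and 22.5% at 400 to 500 bp. The band shares were not tested. TATAAA, the TATA box, was in 66 downstream (9.03%) and 192 upstream windows (13.7%), with an adjusted p of 0.0104 by Fisher's exact test. It was in 16.8% of the list and in 9.62% of the same distances at all single start sites, or 7.80% at the start sites of upstream summits. For both sequences the same distances were taken only on the downstream side. The tests against upstream summits therefore cannot separate the summits from their side of the start site. The GAGAG difference was lost by the exact test without replicate 2 (adjusted p = 0.223), and it did not pass among peaks at or above the median signal, among peaks of both replicates or with one start site per gene. The TATAAA difference was lost among peaks at or above the median signal (adjusted p = 0.126, exact test).

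Against DNA 300 bp farther into the same gene, 3 sequences were more frequent at the downstream summit. TCAGT, the initiator sequence, was in 156 summit windows and 88 flanks (adjusted p = 6.92e-05, exact McNemar test over 13). It was as frequent at the same distances from all single start sites (21.6%) as at the members (21.3%), and among summits more than 50 bp in, where the start site itself is outside the window, TCAGT no longer passed the exact test (adjusted p = 1). It also did not pass without replicate 2, among peaks at or above the median signal or among peaks of both replicates (adjusted p = 0.246, 0.522 and 0.766, exact tests). AAAAAA was in 216 summit windows (29.5%) and 146 flanks, with an adjusted p of 9.35e-05, against 32.1% of the list and 16.8% of the same distances. With the flank taken on the other side, toward the promoter, AAAAAA no longer differed by the exact test (adjusted p = 0.678). GAGAG was in 152 summit windows and 104 flanks, with an adjusted p of 0.00413, and did not pass among peaks at or above the median signal, among peaks of both replicates or with a limit of 300 bp. TCAGT was in 17.4% of the whole list.

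The E-boxes were rare at downstream summits. CAACAGGTG was in 7 of the 731 members (0.958%, exact 95% interval 0.386 to 1.96%), in 17 of 1398 upstream summits (1.22%), in 0.871% of the list and in 0.132% of the same distances at all single start sites. Its 7 summits against 2 flanks did not pass the exact McNemar test (adjusted p = 0.334). The 6-base box CACCTG was in 33 members (4.51%), as many as in the flanks, and in 3.28% of the list and 4.78% of the same distances. CAGCTG was in 32 members (4.38%, list 3.81%), CATATG in 15 (2.05%, list 3.31%) and CACGTG in 9 (1.23%, list 1.03%). None of these differed from upstream summits or flanks by the exact tests.

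The remaining sequences gave small counts. GGTCACACT, a core promoter element known as Motif 1, was in 6 members (0.821%, list 0.428%) and TATCGATA, the DRE element, in 3 (0.410%, list 0.546%). The nuclear receptor core AGGTCA was in 10 members (1.37%, list 1.48%) and CAGGTAG, the Zelda site, in 2 (0.274%, list 0.236%). None passed either family of exact tests. A match or its absence in such a window says nothing of whether a factor was bound.

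Genes of the BTB and chromatin boundary factors were often the nearest gene of a downstream summit. Of all 13945 protein-coding genes, 4.86% had a member and 8.58% an upstream summit. Of the 22 genes of this list 10 did, and 5 had an upstream summit. The members were psq at 544, Trl, the gene of GAGA factor, at 238, ken at 236, lola at 95.8, chinmo at 79.8, mod(mdg4) at 69.4, the insulator gene BEAF-32 at 69.1, fru at 56.2, ab at 54.4 and ttk at 45.8. Only the first 4 were above the list median of 85.6, so the count does not come with high signals. The Trl summit lay 99 bp behind a start site, in a 5′ UTR exon, with 111 and 130.4 in the replicates. No list was tested, and all lists are described by their counts. Each gene counts once, whatever its number of start sites, and the counts were not adjusted for that number or for gene length.

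Ecdysone response and metamorphosis genes, many of which act around pupariation, had 8 of 24 with a downstream and 13 with an upstream summit. The nuclear receptor gene Eip75B had 3 members, behind different start sites, at 169, 105 and 87.1. Eip78C had 128 only 2 bp behind a start site and Eip63E had 123 at 7 bp. Eip74EF, an ETS factor, had 85.5, Met, a juvenile hormone receptor, 77.6, and Eip93F 70.4. The nuclear receptor gene Hr78 had 70.2 and the coactivator gene tai 67.2. The median over the 8 genes was 81.6, beside 76.0 over all members.

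Cytoplasmic ribosomal protein genes had 18 of 94 with a downstream and 12 with an upstream summit. Of the 18, 14 had their summit within 50 bp of the start, where the side is least certain, and the median distance was 17 bp. The highest was RpL24 at 146, with 57.6 in replicate 1 and 84.0 in replicate 2, and RpS10b had 138 and RpS4 130.0. The lowest was RpS28b at 15.4, with no summit of its own in either replicate. The RpS14b peak, at 77.1, lies in a gene with a near-identical neighbouring copy and is uncertain for that reason. Mitochondrial ribosomal protein genes, by contrast, had 0 of 73 with a downstream and 1 with an upstream summit, a difference between lists that was not tested.

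Clock, polarity and Notch genes had members too. In the circadian list 4 of 12 genes did: the kinase gene dco at 114, the clock activator cyc at 102, Pdp1 at 92.3 and the kinase gene sgg at 19.6. In polarity and adhesion 7 of 27 did, led by the scaffold gene dlg1 at 131, the atypical cadherin gene stan at 93.1 and the laminin gene LanB1 at 81.5. In the Notch pathway 6 of 24 did, with the protease gene kuz at 101.2, the ubiquitin ligase genes mib1 and dx both at 65.8, and Ser, neur and mam. Neural RNA-binding proteins had 5 of 20, led by Syp at 162, and 10 with an upstream summit. Neuroblast and temporal factors had 4 of 28, which were hb, Syp, grh and chinmo, and 7 with an upstream summit. Upstream summits were found at 4 genes of the circadian list, 8 of polarity and adhesion and 7 of the Notch pathway. Of all protein-coding genes 4.86% had a member and 8.58% an upstream summit.

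The other lists are given in the same order, the genes with a downstream summit first and those with an upstream summit second, against 4.86% and 8.58% of all protein-coding genes. EGFR, Dpp, Wnt and Hedgehog signalling had 4 of 33 genes and 16, and glycolysis 1 of 15 and 7. Axon guidance had 5 of 32 and 10, insulin and TOR 3 of 17 and 6, synaptic and channel genes 1 of 31 and 5, and proneural factors 1 of 26 and 5. Hox and appendage factors had 0 of 23 with a downstream and 7 with an upstream summit, and the Snail and Scratch family 0 of 6 and 3. Muscle genes had 3 of 23 and 4, cell death genes 3 of 14 and 3, and translation factors 4 of 53 and 6. Cuticle proteins had 0 of 121 and 1, and chemosensory genes 0 of 230 and 3.

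Genes with several members were few. Of the 678 genes 630 had 1 member, 44 had 2, 3 had 3 and 1 had 4. The gene with 4 was Tlk, a chromatin kinase gene, with signals of 291, 97.7, 63.3 and 19.8 at 380, 491, 3 and 202 bp. Besides Eip75B, l(3)neo38 had 3 members, at 104, 78.3 and 54.6, and so did Lmpt, at 65.6, 53.8 and 37.6. An upstream summit was also present at 163 of the 678 genes (24.04%). A further summit within 1000 bp was found beside 36.4% of downstream and 30.3% of upstream summits (adjusted p = 0.00949, Fisher's exact test over the 7 properties). This call was lost without replicate 2 (adjusted p = 0.0663, exact test) and among peaks at or above the median signal (adjusted p = 0.368).

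Gene length, other start sites and noncoding neighbours were also compared with those at upstream summits. Genes longer than 10 kb were nearest to 43.6% of downstream and 49.3% of upstream summits, with an adjusted p of 0.0191 by Fisher's exact test, a call that was lost in 8 of the 10 alternative settings that bear on it. Among the settings that kept it, that with protein-coding transcripts only returned the main values unchanged. At the same distances from all single start sites 25.4% of the genes were longer than 10 kb, and many of those genes were not bound. The median gene length was 8145 bp at downstream summits, against 9458 bp upstream. A start site of the same gene more than 500 bp away was present for 50.8% and 55.0% (adjusted p = 0.0784, exact test), and this difference turned to the other sign when each gene was given a single start site. A noncoding gene started within 500 bp of 35 downstream (4.79%) and 76 upstream summits (5.44%), which did not differ by the exact test (adjusted p = 0.608).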

How the data were processed

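CG12605-eGFP was mapped by chromatin immunoprecipitation and sequencing in whole pupae, in 2 biological replicates of 1 group, so no groups were compared. Per the deposited text, the authors aligned the reads to dm6, compared them with a control alignment to call peaks, and filtered these by the irreproducible discovery rate (IDR). The sources used here name neither the aligner nor the peak caller. Peak heights are the signal values that the authors deposited, whose scaling is not stated. The control alignment, coverage tracks and read counts were not analysed here. Depth is therefore unknown, and exact Clopper-Pearson 95% intervals cover counting error only.

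Summits of the conservative IDR list were placed, counting from 1, on start sites of all transcripts of protein-coding genes in Ensembl release 115, and sequence was read from RefSeq Release 6, the dm6 assembly. Place in the gene refers to transcripts from the nearest start site. Downstream and upstream summits were compared by Fisher's exact test, two-sided, over 7 properties and over 13 motifs in windows of 50 bp on either side of the summit. Summits and flanks 300 bp away were compared by the exact McNemar test, two-sided. P-values were adjusted by Benjamini and Hochberg per family of tests, and 0.05 was the limit. The tests were tested on simulated data. Replicate signals are those of the nearest summit within 100 bp in each replicate's own ranked list, and overlap with a thresholded list means at least 1 bp. Positions at the same distances from start sites were weighted by the members' distances.

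Named genes are the 20 members with the highest signal, up to 3 of each list with the highest signal, members with CAACAGGTG, the 3 peaks nearest to the limit on either side and genes with 3 or more members. Others in the text complete short counts and were named after their values were seen. Of the entries of the 22 gene lists 11 matched no gene. The members, lists and tests were chosen with earlier results of these data known. The 14 alternative settings were other peak lists, single replicates, stricter peaks, start sites, distance limits, 1 peak per gene, window, flank and overlap. Python 3.11.15, numpy 2.4.6, scipy 1.17.1 and matplotlib 3.10.9 were used.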

Additional observations from a re-analysis of the deposited data

How the results depend on the processing

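The lower signal, lower replicate support and higher GC of downstream summits kept their direction and passed the exact test in each alternative setting that gave a value, 10 for signal and GC and 8 for replicate support. The setting with protein-coding transcripts only gave the same 731 members and the same values, so it is no separate check. Replicate support has no value for the lists of a single replicate or for peaks of both replicates only. For GC the same distances at all single start sites have a mean of 44.8%, beside 45.4% at the members. Within bands of distance, added after seeing the data, 6 of the 18 comparisons did not pass: for signal the difference in points was -2.71 at 1 to 50 bp and -12.7 at 400 to 500 bp, for replicate support -5.93 and -1.82 in the same bands, and for GC -1.22 at 1 to 50 bp and -2.89 at 50 to 100 bp.

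The number of members ranged from 383 to 544 when 1 replicate was left out, and was 285 for peaks at or above the median signal and 293 for peaks of both replicates. Their share of single-gene summits ranged from 28.1 to 31.9% without 1 replicate, and was 26.4% for peaks at or above the median signal, 27.4% for peaks of both replicates, 40.9% with one start site per gene and 30.3% beyond 50 bp. The intronic share was 12.1% with a 300 bp limit and 33.3% beyond 50 bp, by construction of the distances kept.

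The difference in genes over 10 kb no longer passed at -3.31 points in the other series list, -4.77 to -4.11 without 1 replicate, -5.83 for peaks at or above the median signal, -4.76 for peaks of both replicates, -1.87 with one start site per gene, -4.18 with a 300 bp limit and -1.23 with 1 peak per gene. The difference in neighbouring summits ranged from 5.39 to 5.71 points without 1 replicate, passing without replicate 1 only, and was 2.60 for peaks at or above the median signal, where it did not pass. The difference in other start sites turned to 6.68 points (adjusted p = 0.0128, exact test) with one start site per gene. Motifs that differed from upstream summits, 2 in the main comparison, numbered 1 to 2 without 1 replicate, 0 for peaks at or above the median signal, 1 for peaks of both replicates and 1 with one start site per gene. Motifs that differed from the flank, 3 in the main comparison, numbered 1 for peaks at or above the median signal, 1 for peaks of both replicates and 6 with a window of 100 bp on either side. The causes were not tested, and the smaller lists hold fewer peaks. No paired analysis was possible because there is only 1 group.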
